A study of Danio rerio with 10 samples.

Results

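The genes described here are those of cell cycle progression and DNA replication, measured as polyadenylated RNA in blood-lineage cells sorted from adult zebrafish ventricles. They were chosen as 45 named zebrafish symbols, of which 43 matched an identifier in the deposited files. Because mcm6 had 2 identifiers, the symbols gave 44 genes out of 32520. They comprised 16 DNA replication genes, 3 genes of the G1/S transition and 25 genes of mitosis. The symbols birc5a and incenp matched no name exactly and are outside these counts. Of the 44 genes, 43 had at least 10 counts in total over the 10 libraries and were taken as detected. The 1 undetected gene was the second mcm6 identifier, ENSDARG00000033231, with 1 count in total, and the detected genes with the fewest counts were bub1 with 16 and top2a with 20.

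Each of the 10 libraries came from 6000 cells sorted from 15 pooled ventricles, and the labels call the sorted cells platelets, which in fish are nucleated thrombocytes. In the CD41 experiment, eGFP-positive cells of Tg(CD41.eGFP) fish were sorted after amputation of the ventricle, from 3 pools of wild-type fish and 3 pools of fish heterozygous for clofv087b, written clo/+ here, an allele of the cloche locus that encodes the transcription factor Npas4l. The sample labels place this sort 1 day after amputation and the series description places it 3 days after. In the gata1a experiment, DsRed-positive cells of Tg(gata1a:DsRed) fish were sorted 7 days after 4-hydroxytamoxifen, a drug that activates the Cre-ERT2 recombinase, from 2 control pools and 2 Npas4l OE pools. The Npas4l OE fish carried gata1a:Cre-ERT2, in which the gata1a promoter drives the recombinase, together with the floxed transgene ubi:loxp-eGFP-stop-loxp-Npas4l. Control replicate 2 carried that transgene without the recombinase, whereas the genotype label of control replicate 1 is clofv087b/+. The 2 controls therefore differ in genotype by their labels.

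Cells prepare to copy their genome by loading the ring-shaped MCM helicase at replication origins, and they then activate it with CDC45 and the GINS complex. Polymerases held on DNA by the PCNA clamp carry out the synthesis with nucleotides made by ribonucleotide reductase. Entry into mitosis is driven by cyclin A and cyclin B with CDK1, the spindle is built and checked by aurora, polo and BUB kinases, and exit follows when the anaphase-promoting complex destroys the cyclins. RNAs of the mitotic genes are scarce in resting cells, whereas PCNA, ribonucleotide reductase and replication protein A also serve DNA repair.

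Counts assigned to genes ranged from 6764258 in wild-type replicate 1 to 13067068 in clo/+ replicate 1, with 7396916 to 9036340 in the gata1a experiment. Levels below are in CPM, gene counts relative to library size, scaled by trimmed-mean (TMM) factors over all 10 libraries. A count of 0 in a single library allows a level of up to 0.241 to 0.445 CPM, taken as 3 counts, and such limits cover counting error only. The 10 thrombocyte marker genes summed to 6842 to 11519 CPM in the 10 libraries. Defining genes of other cells were present too: 8 erythroid genes summed to 7766 to 12552 CPM in the CD41 libraries and 902 to 1911 CPM in the gata1a libraries, and 14 cardiomyocyte genes to 14099 to 46070 CPM overall. The lymphocyte genes summed to at most 10.5 CPM, with cd8a and pax5 at 0 throughout. The npas4l gene (ENSDARG00000116511) did not separate the 2 groups within either experiment. Its log2 fold change was 0.037 (SE 0.71) in clo/+ and 0.21 (SE 0.35) in Npas4l OE, with adjusted p of 0.987 and 0.826 from edgeR's quasi-likelihood test. Between the experiments its levels were apart, at 0.889 to 4.04 CPM in the CD41 libraries and 27.4 to 57.2 CPM in the gata1a libraries. The controls alone had 42.1 and 30.3 CPM. In these bulk libraries, fewer cells of a type and less RNA per cell cannot be told apart. The labels do not say how the pools of a group relate. The p-values set each difference against the spread between libraries, as the fit estimates it. Whether they hold for other pools of fish is therefore not known.

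All detected replication genes except gins2 and cdc45 had counts in every library, and mitotic genes were near the lower limit of detection in several. The 16 replication genes summed to 127, 159 and 156 CPM in wild type (147 ± 17.7, mean and SD, n = 3), 179, 204 and 157 CPM in clo/+ (180 ± 23.6, n = 3), 129 and 89.0 CPM in the controls (109 ± 28.2, n = 2), and 121 and 147 CPM in Npas4l OE (134 ± 18.3, n = 2). The 25 mitotic genes summed to 22.4, 31.0 and 29.0 CPM in wild type (27.5 ± 4.5, n = 3), against 36.6, 51.7 and 28.6 CPM in clo/+ (39.0 ± 11.7), 38.3 and 26.1 CPM in the controls (32.2 ± 8.7), and 20.0 and 35.6 CPM in Npas4l OE (27.8 ± 11.0). For both sets the wild-type and clo/+ sums overlapped, as did the control and Npas4l OE sums. These sums are not corrected for transcript length. The mitotic sum was 17.6% to 19.5% of the replication sum in wild type and 18.2% to 25.4% in clo/+. It was 29.7% and 29.3% in the controls and 16.5% and 24.2% in Npas4l OE.

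**Figure D1:**
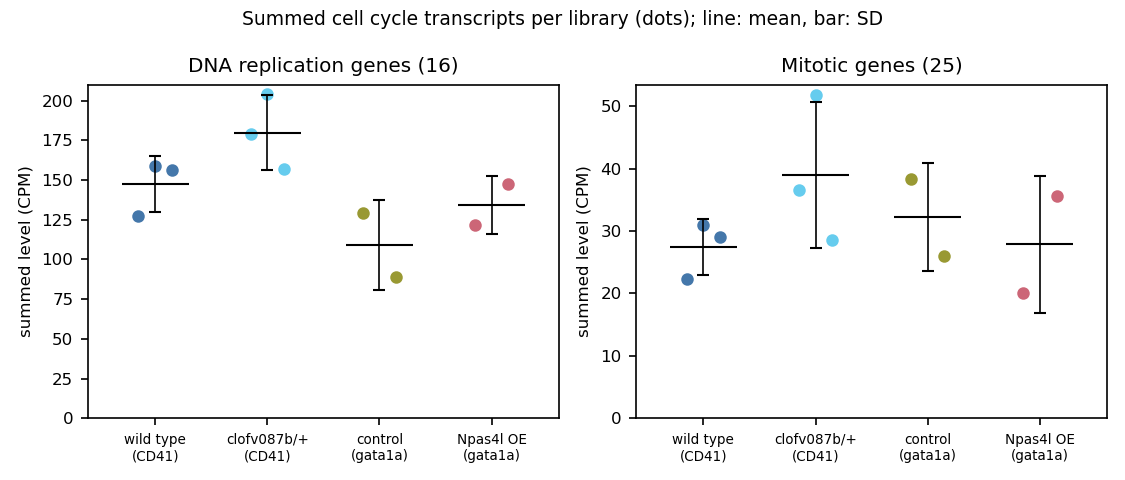
Summed level, in CPM, of the 16 DNA replication genes and of the 25 mitotic genes in each of the 10 libraries; points are libraries and bars are the group mean with SD. The replication sums lay between 89.0 and 204 CPM and the mitotic sums between 20.0 and 51.7 CPM, and within each experiment the 2 groups overlapped.

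The mitotic sums rested on 151 to 518 counts per library. In wild-type replicate 1, the shallowest library, 10 of the 25 mitotic genes had no count, against 2 and 6 in the other wild-type libraries. In clo/+, whose replicate 1 was the deepest library, 1, 0 and 2 of them had no count. Control replicates 1 and 2 had 1 and 6 mitotic genes without a count, and Npas4l OE replicates 1 and 2 had 10 and 1. Npas4l OE replicate 1 and clo/+ replicate 3, with 10 and 2 such genes, were of similar depth, at 7396916 and 7486729 gene counts. The part of depth in these numbers was not tested. Single libraries led across both sets of genes in clo/+, the controls and Npas4l OE. In wild type, replicates 2 and 3 were highest for 7 and 6 replication genes and for 9 mitotic genes each. Within clo/+, replicate 2 had the highest level of 10 of the 15 detected replication genes and 14 of the 25 mitotic genes. Within the controls, replicate 1 was the higher library for 11 of 15 and 18 of 25, and within Npas4l OE replicate 2 was the higher for 13 of 15 and 18 of 25. The matching shares over all genes were not counted.

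**Figure D2:**
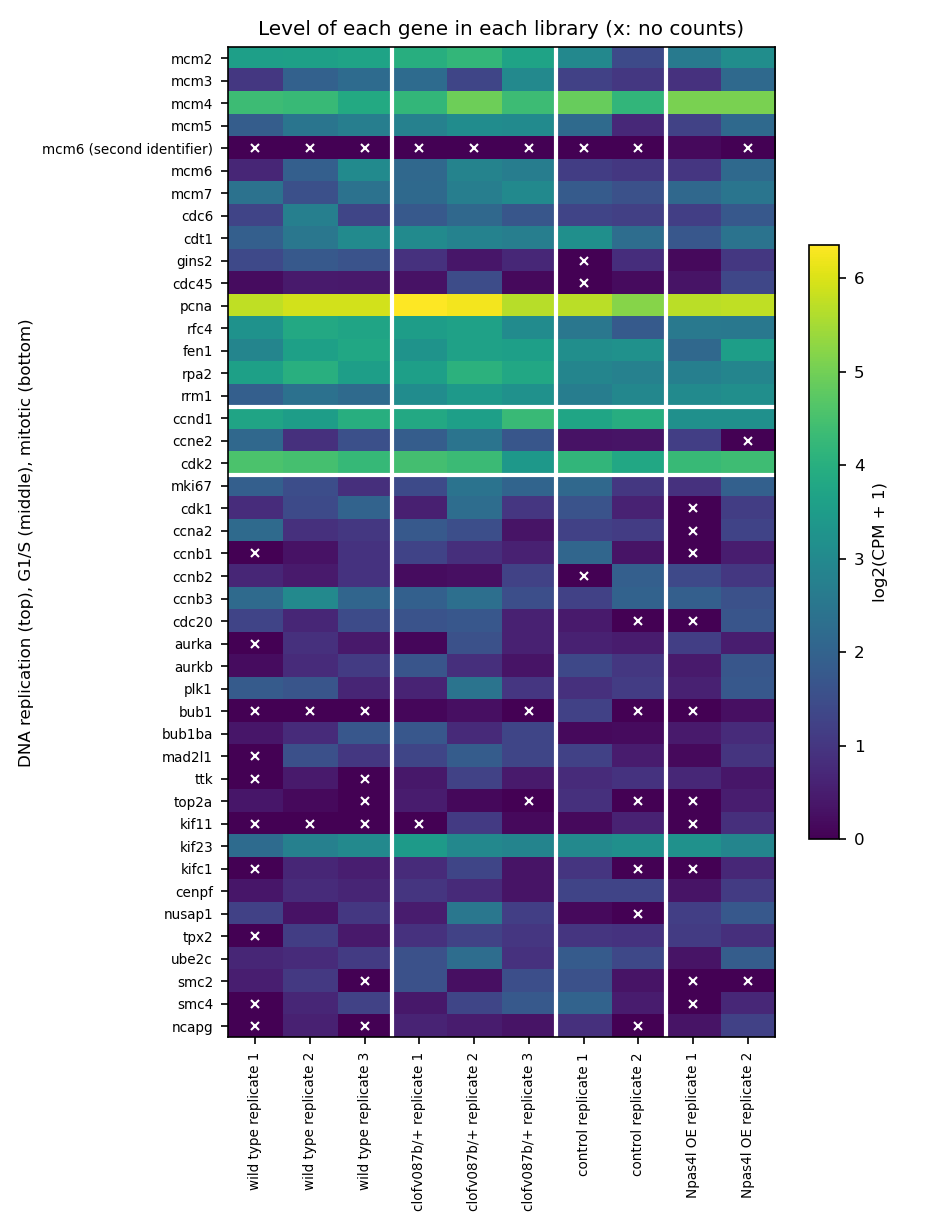
Level of each of the 44 genes in each of the 10 libraries, as log2(CPM + 1), grouped into DNA replication, G1/S and mitotic genes; a cross marks a library with no count. Apart from the undetected mcm6 identifier, the crosses gather in the mitotic genes, with 10 of 25 in wild-type replicate 1 and in Npas4l OE replicate 1 and none in clo/+ replicate 2.

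The first comparison asked which of these genes differed between CD41-sorted cells of clo/+ and wild-type fish. The ribonucleotide reductase gene rrm1 was higher and the GINS subunit gene gins2 lower in all 3 clo/+ libraries than in any wild-type library, but neither passed the test over all genes. The other tested replication genes, including pcna and the tested mcm genes, differed by less, and no tested mitotic gene stood apart between the groups. Of the 28 genes with enough counts for the test, 0 reached an adjusted p under 0.05 by the quasi-likelihood test of edgeR, where 0.0145% of all 13749 genes did. DESeq2 and limma-voom also gave 0 of them, but DESeq2 gave some of these genes no adjusted p, among them gins2 and ccnb3. For those genes its result could not have been a call. At an unadjusted p under 0.05 there was 1 gene higher (rrm1) and 1 lower (gins2), where 7.19% and 4.79% of all genes were. The groups did not overlap for 3 genes that were higher (rrm1, mcm2 and mcm5) and 1 that was lower (gins2), where 9.63% and 8.59% of all genes were so placed.

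Genes that load and activate the helicase were considered first. The MCM2 to MCM7 proteins form the ring of the replicative helicase, and their genes summed to 39.0, 42.0 and 46.2 CPM in wild type and 49.2, 68.3 and 57.9 CPM in clo/+. Every clo/+ sum was above every wild-type sum, and the Npas4l OE sums given below were likewise above those of their controls. In every library mcm4 was the largest part of the sum. Without mcm4 the sums overlapped between the groups in both experiments. These sums were not tested. The level of mcm2 (ENSDARG00000102798) was 11.0, 11.3 and 11.8 CPM in wild type and 14.9, 17.5 and 11.9 CPM in clo/+. The groups did not overlap, although clo/+ replicate 3 was close to the wild-type range. The log2 fold change of mcm2 was 0.37 (SE 0.28, 95% interval -0.21 to 0.94, adjusted p = 0.610), or 0.23 without clo/+ replicate 2. The mcm5 gene had 2.67, 4.50 and 5.62 CPM in wild type and 5.94, 7.59 and 7.20 CPM in clo/+, again without overlap, with a log2 fold change of 0.67 (SE 0.40, adjusted p = 0.511), or 0.44 without wild-type replicate 1. For mcm4, levels of 13.6 to 19.4 CPM in wild type overlapped those of 17.6 to 29.9 CPM in clo/+, and the log2 fold change was 0.36 (SE 0.27, adjusted p = 0.603). It was 0.094 without clo/+ replicate 2. The mcm3, mcm6 (ENSDARG00000057683) and mcm7 genes were between 0.593 and 7.23 CPM in wild type and between 1.50 and 7.08 CPM in clo/+, and their groups overlapped, as did those of cdc6 and cdt1, whose products load the ring.

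GINS2 is a subunit of the complex that activates the helicase. The gins2 gene (ENSDARG00000002304) had 1.63, 2.43 and 2.06 CPM in wild type and 0.884, 0.299 and 0.632 CPM in clo/+, from 49 and 19 counts over the groups. All 3 clo/+ libraries were below all 3 wild-type libraries. Its log2 fold change was -1.73 (SE 0.76, 95% interval -3.33 to -0.13, unadjusted p = 0.0351, adjusted p = 0.378). With any 1 of the 6 libraries left out, the log2 fold change ranged from -2.12 to -1.41 and its unadjusted p was no longer under 0.05. CDC45 works in the same helicase complex, and cdc45 had 18 of its 22 clo/+ counts in replicate 2, too few for the test.

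Among the genes of synthesis itself, rrm1 (ENSDARG00000014017), which encodes the large subunit of ribonucleotide reductase, had 2.82, 4.13 and 3.56 CPM in wild type and 7.55, 9.88 and 8.34 CPM in clo/+. The 2 groups were well apart, at 3.50 ± 0.66 and 8.59 ± 1.19 CPM (SD, n = 3). Its log2 fold change was 1.27 (SE 0.38, 95% interval 0.47 to 2.07), or 2.42-fold, with an unadjusted p of 0.00349 and an adjusted p of 0.214. Leaving out each library in turn gave 1.15 to 1.41. The sliding clamp gene pcna (ENSDARG00000054155) had 53.2, 60.0 and 59.6 CPM in wild type and 81.0, 75.5 and 50.4 CPM in clo/+. Clo/+ replicate 3 was below the wild-type range and the other 2 clo/+ libraries above it, and the log2 fold change was 0.25 (SE 0.22, 95% interval -0.21 to 0.70, adjusted p = 0.671), with 0.12 without clo/+ replicate 1 and 0.42 without clo/+ replicate 3. The groups also overlapped for rfc4, a subunit of the clamp loader, for fen1, the flap endonuclease of lagging-strand synthesis, and for rpa2, a subunit of the single-strand binding protein. Over the 14 tested replication genes, 11 log2 fold changes were above 0 and 3 below, where 49.8% of all genes tested were above 0. Their median was 0.35, against -0.00 over all genes tested. The median was 0.14 without wild-type replicate 1.

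**Figure D3:**
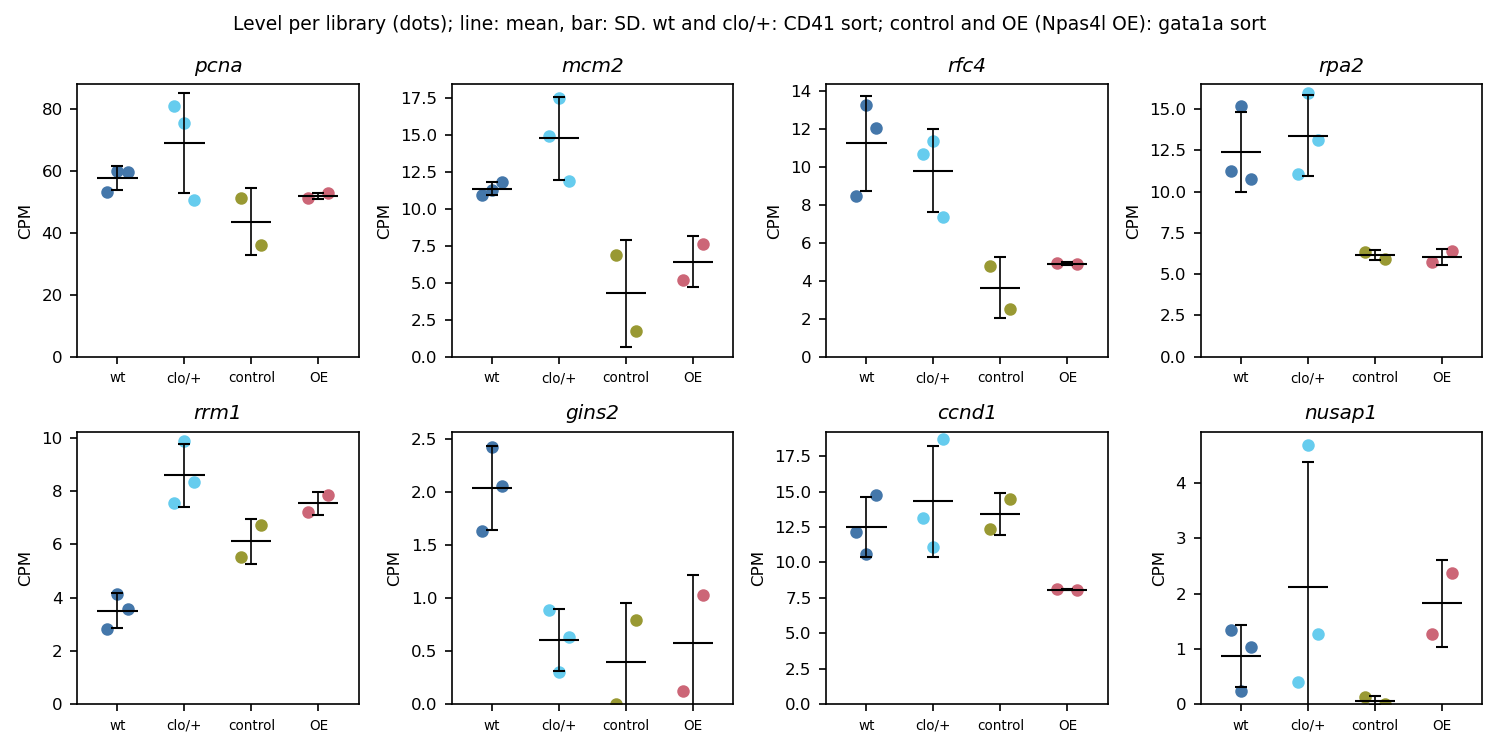
Level in CPM of pcna, mcm2, rfc4, rpa2, rrm1, gins2, ccnd1 and nusap1 in each of the 10 libraries, with a separate vertical axis for each gene; points are libraries, with the group mean and SD. The rrm1 points of clo/+ (7.55 to 9.88 CPM) lie above those of wild type (2.82 to 4.13 CPM), and the gins2 points of clo/+ lie below.

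Cyclin D1, cyclin E2 and CDK2 drive passage from G1 into S phase. The ccnd1 gene had 12.2, 10.6 and 14.8 CPM in wild type and 13.2, 11.1 and 18.7 CPM in clo/+. The groups overlapped, and its log2 fold change was 0.18 (SE 0.29, adjusted p = 0.835). It was -0.06 without clo/+ replicate 3. The ccne2 and cdk2 groups overlapped too, at 0.851 to 4.49 CPM and 9.48 to 22.4 CPM over the 6 libraries.

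The proliferation marker gene mki67, whose product coats mitotic chromosomes, had 2.82, 1.82 and 0.803 CPM in wild type and 1.69, 4.39 and 3.16 CPM in clo/+. The groups overlapped and the log2 fold change was 0.76 (SE 0.64, adjusted p = 0.658), and leaving out wild-type replicate 3 gave 0.40 where leaving out wild-type replicate 1 gave 1.21. The nusap1 gene, for a protein that bundles spindle microtubules, had 1.33, 0.243 and 1.03 CPM in wild type and 0.402, 4.69 and 1.26 CPM in clo/+. Its log2 fold change of 1.27 (SE 0.89, adjusted p = 0.580) rested on clo/+ replicate 2 and was -0.09 without it. For ccnb3, a B-type cyclin, levels were 3.56, 6.93 and 3.21 CPM in wild type and 2.89, 3.99 and 1.90 CPM in clo/+, and the log2 fold change was -0.65 (SE 0.51, adjusted p = 0.627), or -0.21 without wild-type replicate 2. The cytokinesis kinesin kif23 had 3.70, 5.83 and 7.00 CPM in wild type and 10.1, 6.79 and 6.32 CPM in clo/+, with a log2 fold change of 0.48 (SE 0.38, adjusted p = 0.636), or 0.24 without clo/+ replicate 1. Both sets of values overlapped between the groups.

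The spindle checkpoint genes mad2l1 and bub1ba, the condensin gene smc4 and the activator of the anaphase-promoting complex cdc20 had log2 fold changes from 0.36 to 0.99 with adjusted p between 0.712 and 0.878. With 1 library left out, cdc20 ranged from 0.03 without wild-type replicate 2 to 0.77 without clo/+ replicate 3, and bub1ba from -0.03 without clo/+ replicate 1 to 1.52 without wild-type replicate 3. The mad2l1 value ranged from 0.33 without wild-type replicate 1 to 1.76 without wild-type replicate 2, and that of smc4 from 0.38 without clo/+ replicate 3 to 2.06 without wild-type replicate 3. Over the 11 tested mitotic genes 8 values were above 0 and 3 below, with a median of 0.42 and a median SE of 0.80. That median was 0.23 without clo/+ replicate 2 and 0.74 without wild-type replicate 3, and leaving out clo/+ replicate 3 gave 0.73. The other 14 mitotic genes had too few counts for the test. Among them the spindle kinesin kif11 had 0 counts in wild type and 12 in clo/+. Setting the wild-type group at 3 counts gives a ratio of 3.12, which leaves out the counting error of the 12. Of the 12 counts, 11 were in clo/+ replicate 2. The checkpoint kinase gene ttk had 3 and 21 counts, a ratio of 5.46 with an exact counting interval of 1.63 to 28.6, and 14 of the 21 were in that library. Counting intervals here and below pool the reads of a group and leave out the spread between replicates.

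The 17 macrophage marker genes summed to 182 to 235 CPM in wild type and 277 to 335 CPM in clo/+, with 4 of the 12 tested higher at an unadjusted p under 0.05. In wild type 4 of the 17 were at 0 and in clo/+ 2 of them, all copies of mfap4. By the same threshold 3 of 8 endothelial, 3 of 9 fibroblast, 2 of 7 erythroid and 1 of 4 neutrophil genes were higher, and 1 of 10 thrombocyte, 1 of 5 progenitor and 1 of 9 fibroblast genes lower. Over all genes tested 7.19% were higher and 4.79% lower. No marker gene reached an adjusted p under 0.05 by edgeR's quasi-likelihood test, and the smallest was 0.119, in the macrophage list. The summed levels of these other lists overlapped between the groups, and the part of the marker genes in the values of rrm1 and the mcm genes was not tested.

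Other genes of the pathway were examined from 4 longer lists. In clo/+ against wild type, 0 of the 34 other replication genes tested, 0 of 18 other mitotic genes, 0 of 13 other G1/S and E2F genes and 0 of 19 cell cycle inhibitors reached an adjusted p under 0.05 in edgeR's quasi-likelihood test. At an unadjusted p under 0.05 the counts were 0, 0, 2 and 2, all lower, where 4.79% of all genes were lower and 7.19% higher. A cyclin D2 gene, ENSDARG00000051748, had 586, 506 and 524 CPM in wild type and 398, 403 and 192 CPM in clo/+, without overlap, and a log2 fold change of -0.72 (SE 0.26, adjusted p = 0.278). The antiproliferative genes btg2 and btg1 both had log2 fold changes of -0.60 (adjusted p = 0.275 and 0.294), and e2f6, an E2F repressor gene, had -0.59 (adjusted p = 0.323). In the same fit dhfr, for dihydrofolate reductase, had 1.00 (adjusted p = 0.419), the histone chaperone gene ASF1B (ENSDARG00000043713) -0.55 (adjusted p = 0.437), the CDK phosphatase gene cdc25b 0.69 (adjusted p = 0.485) and the spindle gene tacc3 0.37 (adjusted p = 0.603).

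The second comparison asked which genes differed between gata1a-sorted cells of Npas4l OE fish and controls. The spindle gene nusap1 had 1 count in the controls and 33 in Npas4l OE, and cyclin D1 was lower in both Npas4l OE libraries, but neither passed the test over all genes. No replication gene passed it either, although 5 of them, mcm4, mcm7, pcna, rfc4 and rrm1, were higher in both Npas4l OE libraries than in both controls. For pcna and rfc4 control replicate 1 was nearly level with the lower Npas4l OE library, at 51.18 against 51.23 CPM and 4.77 against 4.85 CPM. Of the 24 genes tested, 0 reached an adjusted p under 0.05 by edgeR's quasi-likelihood test, where 0.0357% of all 14006 genes did (0.00714% higher and 0.0286% lower). DESeq2 and limma-voom also gave 0. DESeq2 gave some of these genes no adjusted p, among them mcm2, mcm7, cdt1, ccnb3 and kif23, so it could not call them. At an unadjusted p under 0.05 there was 1 gene higher (nusap1) and 0 lower, where 6.11% and 9.36% of all genes were. The nusap1 gene passed the filter on counts only through the Npas4l OE libraries, where it was high. The groups did not overlap for 7 genes that were higher and 2 that were lower in Npas4l OE, where 24.1% and 23.7% of all genes were so placed with 2 libraries a group.

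For the helicase genes, the MCM2 to MCM7 sums were 43.8 and 23.6 CPM in the controls and 45.0 and 55.6 CPM in Npas4l OE. These sums did not overlap, although control replicate 1 was close to the Npas4l OE range. Most of both Npas4l OE sums came from mcm4, and the groups overlapped for mcm2, mcm3, mcm5 and mcm6 (ENSDARG00000057683). The mcm4 gene (ENSDARG00000040041) had 28.3 and 17.1 CPM in the controls and 33.0 and 32.8 CPM in Npas4l OE. Both Npas4l OE libraries were above both controls, and the log2 fold change was 0.53 (SE 0.30, 95% interval -0.14 to 1.19, adjusted p = 0.446), or 0.22 without control replicate 2. The mcm7 gene had 2.57 and 1.97 CPM in the controls and 3.42 and 4.54 CPM in Npas4l OE, also without overlap, with a log2 fold change of 0.80 (SE 0.62, adjusted p = 0.585). For mcm2, levels were 6.86 and 1.71 CPM in the controls and 5.20 and 7.64 CPM in Npas4l OE. These overlapped, since control replicate 1 was above Npas4l OE replicate 1, and the 2 controls differed more from each other than the 2 Npas4l OE libraries did. The log2 fold change of mcm2 was 0.57 (SE 0.62, adjusted p = 0.711), with -0.09 without control replicate 2 and 1.88 without control replicate 1. The mcm3 value of 0.86 (adjusted p = 0.706) rested on Npas4l OE replicate 2 and was -0.42 without it. The licensing factor gene cdt1 had 7.96 and 3.82 CPM in the controls and 2.28 and 4.34 CPM in Npas4l OE, with overlap, and a log2 fold change of -0.83 (SE 0.58, adjusted p = 0.539), or -0.22 without control replicate 1.

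For the synthesis genes, pcna had 51.2 and 35.9 CPM in the controls and 51.2 and 52.7 CPM in Npas4l OE, so that control replicate 1 was level with the Npas4l OE libraries. Its log2 fold change was 0.24 (SE 0.26, 95% interval -0.33 to 0.82, adjusted p = 0.705), and it was 0.02 without control replicate 2. The rrm1 gene had 5.51 and 6.71 CPM in the controls and 7.23 and 7.85 CPM in Npas4l OE, without overlap, and a log2 fold change of 0.29 (SE 0.42, 95% interval -0.64 to 1.22, adjusted p = 0.796). The rpa2 gene stayed between 5.71 and 6.40 CPM in all 4 libraries. Over the 12 tested replication genes 9 values were above 0 and 3 below, where 49.4% of all genes tested were above 0. Their median was 0.33, against -0.01 over all genes tested. The median was 0.93 without control replicate 1, 0.13 without control replicate 2, 0.63 without Npas4l OE replicate 1 and 0.07 without Npas4l OE replicate 2. In the cdc45 gene, 15 of the 17 counts of Npas4l OE were in replicate 2, against 1 count in the controls, a ratio of 15.3 with an exact counting interval of 2.39 to 637.

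Of the G1/S genes, ccnd1 (ENSDARG00000101637) had 12.4 and 14.5 CPM in the controls and 8.12 and 8.06 CPM in Npas4l OE. Both Npas4l OE libraries were below both controls, at 8.09 ± 0.0422 against 13.4 ± 1.50 CPM (SD, n = 2). The log2 fold change was -0.74 (SE 0.34, 95% interval -1.51 to 0.02, unadjusted p = 0.0557, adjusted p = 0.339), and -0.86 to -0.61 with 1 library left out. The cdk2 gene had 17.1 and 13.0 CPM in the controls and 18.6 and 20.0 CPM in Npas4l OE, with a log2 fold change of 0.35 (SE 0.30, adjusted p = 0.629).

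Of the mitotic genes, nusap1 (ENSDARG00000002403) had 0.122 and 0 CPM in the controls and 1.27 and 2.38 CPM in Npas4l OE. The 33 counts against 1 give a ratio of 29.6 with an exact counting interval of 4.96 to 1205, and the adjusted p was 0.183 (unadjusted p = 0.00854). Because only the Npas4l OE counts brought nusap1 into the test, its p and ratio carry that selection. The same gene had 1.33, 0.243 and 1.03 CPM in wild type of the CD41 experiment and 0.402, 4.69 and 1.26 CPM in clo/+. The mki67 gene had 3.43 and 1.05 CPM in the controls and 0.888 and 2.89 CPM in Npas4l OE. High and low libraries were thus present in both groups, and its log2 fold change was -0.24 (SE 0.89, adjusted p = 0.932), with -1.31 without Npas4l OE replicate 2 and 0.82 without control replicate 1.

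CDK1 and cyclin A2 are the kinase and a cyclin that take cells into mitosis. The cdk1 gene had 2.08 and 0.527 CPM in the controls and 0 and 1.24 CPM in Npas4l OE, with a log2 fold change of -1.02 (adjusted p = 0.769), and ccna2 had 1.35 and 1.18 CPM in the controls and 0 and 1.45 CPM in Npas4l OE, with -0.77 (adjusted p = 0.826). Npas4l OE replicate 1 had no count of either gene, and replicate 2 was within or above the control range. The kinetochore gene cenpf had 1.47 and 1.45 CPM in the controls and 0.254 and 1.14 CPM in Npas4l OE, with a log2 fold change of -1.04 (adjusted p = 0.683), with -0.36 without Npas4l OE replicate 1 and -2.44 without replicate 2. The log2 fold changes of ube2c, the ubiquitin-conjugating enzyme of the anaphase-promoting complex, ccnb3 and kif23 were -0.49, 0.10 and -0.05 (adjusted p = 0.869, 0.970 and 0.972), and each changed sign when 1 library was left out.

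Over the 10 tested mitotic genes 3 values were above 0 and 7 below, with a median of -0.15 and a median SE of 1.02. The median was -2.54 without Npas4l OE replicate 2, -0.24 without control replicate 2, 0.26 without control replicate 1 and 0.09 without Npas4l OE replicate 1. Of the 15 mitotic genes not tested, the condensin gene smc2 had 18 counts in the controls, 16 of them in replicate 1, and 0 in Npas4l OE. Setting the Npas4l OE group at 3 counts gives a ratio of 6.69, which leaves out the counting error of the 18. The checkpoint kinase gene bub1 had 11 counts in control replicate 1, 0 in replicate 2 and 2 in Npas4l OE, a ratio of 6.13 with an exact counting interval of 1.34 to 56.9. The cdc20 gene went the other way, with 3 and 21 counts and a ratio of 6.28 (1.88 to 32.9), all 21 in Npas4l OE replicate 2. Neither interval includes the spread between replicates.

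**Figure D4:**
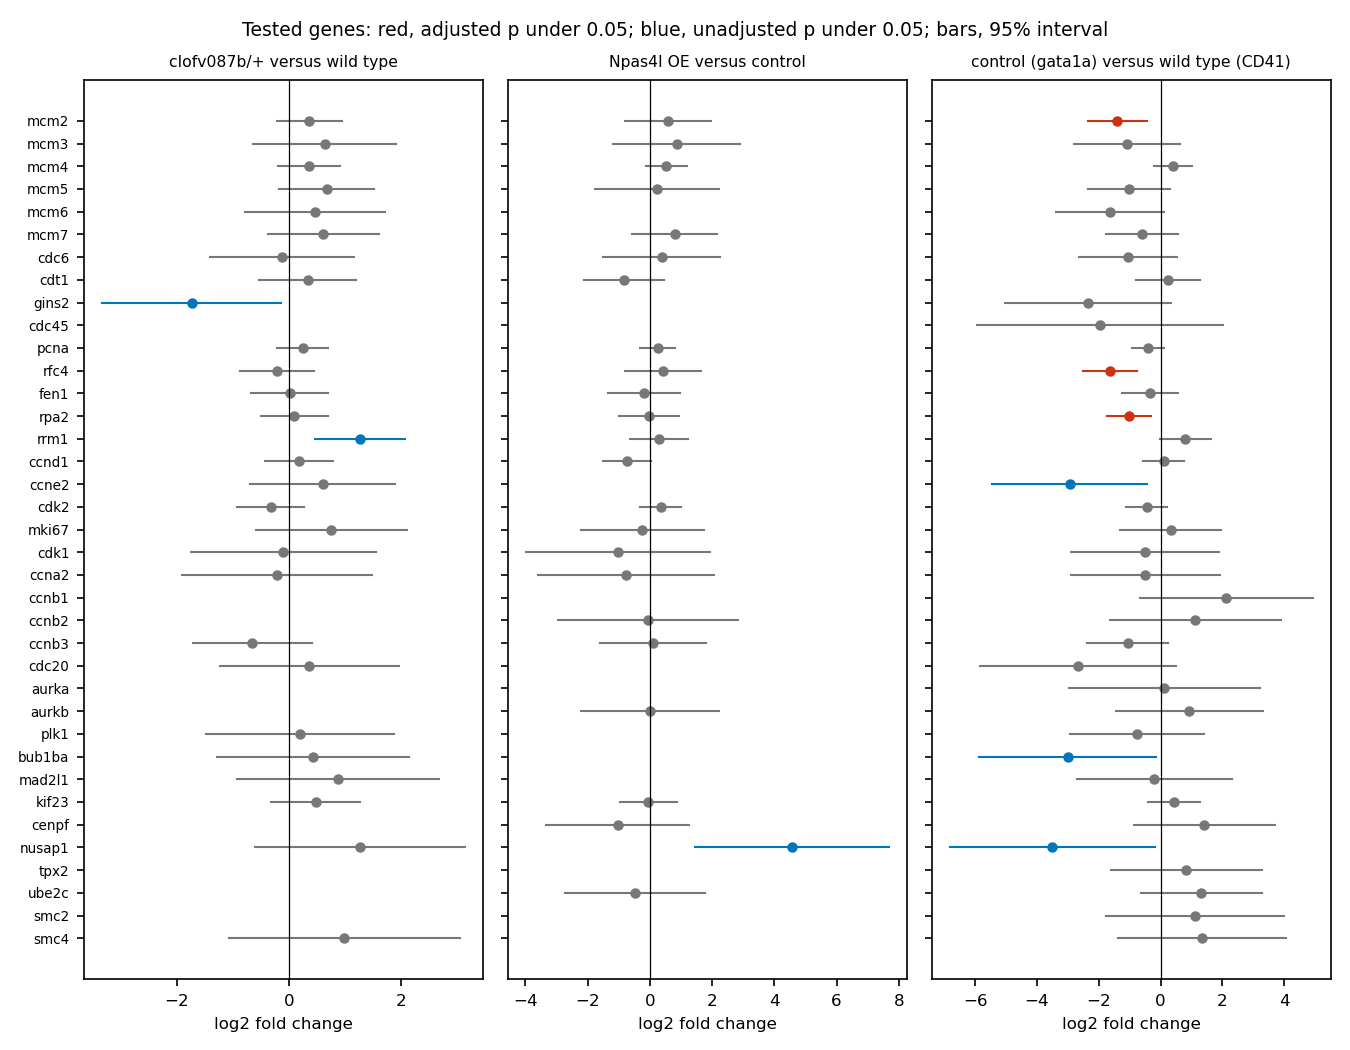
Log2 fold change of each tested gene with its 95% interval from the edgeR fit, for clo/+ against wild type, Npas4l OE against control, and control of the gata1a experiment against wild type of the CD41 experiment; red marks an adjusted p under 0.05 and blue an unadjusted p under 0.05. The red points are mcm2, rfc4 and rpa2 in the comparison between the experiments, and the intervals of the mitotic genes are wider than those of most replication genes.

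The summed levels of most cell type marker lists did not overlap between Npas4l OE and control. No marker gene reached an adjusted p under 0.05 by edgeR's quasi-likelihood test, and the smallest was 0.0605, in the erythroid list. At an unadjusted p under 0.05, 6.11% of all genes were higher and 9.36% lower. The summed thrombocyte genes were higher in Npas4l OE, at 10393 to 11519 CPM against 8978 to 9519 CPM in the controls, with 2 of 10 higher and 1 lower at an unadjusted p under 0.05. Macrophage genes summed to 978 and 1955 CPM in the controls and 196 and 762 CPM in Npas4l OE, with 8 of the 11 tested lower at an unadjusted p under 0.05. Cardiomyocyte genes summed to 38433 to 46070 and 21854 to 22916 CPM, with 9 of 11 lower, and erythroid genes to 1021 to 1911 and 902 to 974 CPM, with 6 of 7 lower. Progenitor genes summed to 599 to 995 CPM in the controls and 1201 to 1348 CPM in Npas4l OE, with 3 of 5 higher and gata2b at 0 in both groups. Endothelial genes summed to 871 to 930 and 566 to 676 CPM, with 3 of 7 lower and 1 higher, and neutrophil genes to 136 to 150 and 106 to 116 CPM, with 1 of 2 lower and lyz at 0 in both groups. Fibroblast genes summed to 178 to 210 and 125 to 178 CPM, with 3 of 9 lower. Their part in the values of ccnd1 and of the mitotic genes was not tested.

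In the longer lists, 0 of 32 other replication genes tested, 0 of 12 other mitotic genes, 0 of 12 other G1/S and E2F genes and 0 of 18 inhibitors had an adjusted p under 0.05 in Npas4l OE against control by edgeR's quasi-likelihood test. At an unadjusted p under 0.05, 3, 1, 1 and 2 were higher and 1, 0, 0 and 2 lower, where 6.11% of all genes were higher and 9.36% lower. The gene pold1, for the catalytic subunit of DNA polymerase delta, had 4.53 and 4.08 CPM in the controls and 10.1 and 15.3 CPM in Npas4l OE, with a log2 fold change of 1.55 (SE 0.41, adjusted p = 0.146). The cyclin D2 gene ENSDARG00000051748 had 403 and 301 CPM in the controls and 569 and 601 CPM in Npas4l OE, with 0.72 (SE 0.22, adjusted p = 0.176), while ccnd1 was lower in the same libraries. A second cyclin D2 gene, ENSDARG00000070408, had 1.53 (adjusted p = 0.352). The inhibitor gene cdkn1ca, for p57, had 4.77 and 8.82 CPM in the controls and 2.03 and 2.27 CPM in Npas4l OE, with -1.67 (SE 0.56, adjusted p = 0.213), and btg2 had 0.96 (SE 0.30, adjusted p = 0.187). The values of uhrf1, which recruits the maintenance DNA methyltransferase, and of cks1b, a CDK subunit, were 0.83 and -1.52 (adjusted p = 0.268 and 0.446). The centriole kinase gene plk4 had 2 and 25 counts, a ratio of 11.2 with an exact counting interval of 2.80 to 97.7 (adjusted p = 0.287). Like nusap1, plk4 entered the test only through its Npas4l OE counts.

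The third comparison set the 2 gata1a controls beside the 3 CD41 wild-type libraries and describes the 2 sorts. It shares its libraries with both comparisons above, and the groups differ at once in reporter, injury, drug, time and genotype, whose effects cannot be told apart. The replication genes rfc4, mcm2 and rpa2 were lower in the gata1a controls, and no mitotic gene passed the test. Of the 37 genes with enough counts, 3 reached an adjusted p under 0.05 by edgeR's quasi-likelihood test, all lower, or 3 of the 15 replication genes, 0 of the 3 G1/S genes and 0 of the 19 mitotic genes. Over all 15380 genes tested, 10.7% were lower and 9.71% higher at that threshold, and 20.4% in either direction. The groups did not overlap for 13 genes that were lower and 3 that were higher, where 24.4% and 24.2% of all genes were so placed.

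The clamp-loader gene rfc4 (ENSDARG00000042458) had 8.45, 13.2 and 12.0 CPM in wild type and 4.77 and 2.50 CPM in the controls. All 3 wild-type libraries were above both controls, and the log2 fold change was -1.62 (SE 0.42, 95% interval -2.49 to -0.75, adjusted p = 0.0100). The mcm2 gene had 11.0, 11.3 and 11.8 CPM in wild type and 6.86 and 1.71 CPM in the controls, with -1.40 (SE 0.45, 95% interval -2.34 to -0.45, adjusted p = 0.0343). The rpa2 gene (ENSDARG00000037188) had 11.3, 15.2 and 10.8 CPM in wild type and 6.37 and 5.92 CPM in the controls, with -1.01 (SE 0.34, 95% interval -1.72 to -0.30, adjusted p = 0.0422). The groups were apart for all 3 genes. Without control replicate 2 none of the 3 passed the threshold, with values of -1.24 for rfc4, -0.73 for mcm2 and -0.96 for rpa2, whereas without control replicate 1 mcm2 was at -2.72 and mcm5 passed as well. The mcm2 call was also lost without any 1 wild-type library, and the rpa2 call without wild-type replicate 1, wild-type replicate 2 or control replicate 1. With all libraries kept, the rpa2 call was lost with upper-quartile factors, without a filter, with limma-voom and in the fit of the 5 libraries compared, and the mcm2 call in the latter. Other lists also passed in this comparison: 8 of 12 macrophage, 5 of 11 cardiomyocyte and 2 of 3 lymphocyte genes were higher, and 6 of 7 erythroid and 3 of 4 neutrophil genes lower, in the controls at an adjusted p under 0.05. Both directions were found among thrombocyte genes (3 higher and 3 lower of 10), endothelial genes (4 and 1 of 8) and fibroblast genes (2 and 1 of 9). The part of these genes in the replication values was not tested.

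The other replication genes did not pass. The rrm1 gene was above 0, at 0.80 (SE 0.39, adjusted p = 0.163), with both controls above all 3 wild-type libraries. The mcm4 and cdt1 values were also above 0. The mcm6 gene (ENSDARG00000057683) was at -1.63 (adjusted p = 0.176), or -0.59 without wild-type replicate 3, which held 63 of its 90 wild-type counts. The pcna gene was at -0.40 (SE 0.25, 95% interval -0.92 to 0.11, adjusted p = 0.269), with -0.17 without control replicate 2 and -0.68 without control replicate 1. Over the 15 tested replication genes 12 values were below 0 and 3 above, where 50.9% of all genes tested were above 0, with a median of -1.01 against 0.02 over all genes tested. The G1/S cyclin gene ccne2 had 3.41, 0.851 and 1.95 CPM in wild type and 0.245 and 0.263 CPM in the controls, with -2.94 (SE 1.20, adjusted p = 0.0913), and ccnd1 was at 0.10 (adjusted p = 0.853).

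Mitotic genes went both ways. The spindle gene nusap1 had 20 counts in wild type and 1 in the controls, a ratio of 13.3 with an exact counting interval of 2.13 to 551 (adjusted p = 0.127), and bub1ba had 28 and 2, a ratio of 9.31 with 2.35 to 80.7 (adjusted p = 0.132). The cdc20 gene had 30 and 3 counts, a ratio of 6.65 with 2.07 to 34.1 (adjusted p = 0.229). In the other direction ccnb1 was at 2.12 (adjusted p = 0.283), cenpf at 1.42 (adjusted p = 0.388), ube2c at 1.31 (adjusted p = 0.349) and kif23 at 0.44 (adjusted p = 0.481). Of the 29 control counts of ccnb1, 27 were in replicate 1, and the value was -0.56 without it. The ccnb3 gene was at -1.06 (adjusted p = 0.251), with -1.75 without control replicate 2 and -0.59 without control replicate 1, and mki67 at 0.32 (adjusted p = 0.814), or -0.76 without control replicate 1. The median of the 19 tested mitotic genes was 0.32, and it was -0.59 without control replicate 1, 0.87 without control replicate 2 and 0.08 without wild-type replicate 3.

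The longer lists held calls in both directions in this comparison by edgeR's quasi-likelihood test: 3 of 34 replication, 4 of 24 mitotic, 1 of 13 G1/S and E2F genes and 7 of 19 inhibitors. Over all genes 20.4% were called, and the first 3 lists were below that share. Of 34 other replication genes tested, orc1, a subunit of the origin recognition complex, was higher in the controls, with 250, 216 and 205 CPM in wild type against 579 and 547 CPM (log2 fold change 1.34, adjusted p = 0.0014). The clamp-loader gene rfc2 (-1.25, adjusted p = 0.0079) and the DNA ligase gene lig1 (-1.85, adjusted p = 0.0167) were lower. Of 24 other mitotic genes, the cyclin F gene ccnf was higher (2.02, adjusted p = 0.0017), whereas tacc3 (-3.13, adjusted p = 0.0031), the CDK subunit gene cks2 (ENSDARG00000117089, -1.41, adjusted p = 0.0477) and anln, for the contractile-ring protein anillin, were lower. The anln gene had 172 counts in wild type and 3 in the controls, a ratio of 38.1 with an exact counting interval of 12.8 to 187 (adjusted p = 0.0011).

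Of 13 other G1/S and E2F genes, 1 passed, a MYC gene (ENSDARG00000045695, -1.80, adjusted p = 0.0479). Of 19 inhibitors and brakes, 3 were higher in the controls, namely fzr1b, an activator of the anaphase-promoting complex (2.13, adjusted p = 0.0008), cdkn1ca (2.59, adjusted p = 0.0185) and the antiproliferative gene tob1b (0.68, adjusted p = 0.0289). Another 4 were lower, namely wee1, a kinase that holds CDK1 inactive (-2.25, adjusted p = 0.0084), cdkn1a, for p21 (-1.54, adjusted p = 0.0187), cdkn2a/b (-1.92, adjusted p = 0.0478) and cdkn1cb (adjusted p = 0.0036). The cdkn1cb gene had 72 counts in wild type and 0 in the controls. Setting the controls at 3 counts over the group gives a ratio of 16.0, which leaves out the counting error of the 72. The 2 paralogous p57 genes, cdkn1ca and cdkn1cb, thus passed in opposite directions.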

How the data were processed

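The authors deposited 1 file of raw read counts per gene for each library, whole numbers with 5 summary lines. Per the labels' protocols, oligo-dT-primed cDNA was amplified and tagmented. Molecular identifiers are not named there. The counting intervals and limits treat each read as a separate count and make no allowance for copies made in amplification or for the spread between replicates. The submitters' processing notes name GRCz11, FastQC 0.11.4, Trim Galore 0.6.0, HISAT2 2.1.0 and DESeq2 1.22.1; the counter and use of strand are not given in the sources used here. Summary lines held 50.7% to 59.0% of reads and were left out. Gene counts were 6764258 to 13067068 per library. Symbols came from a table naming 29201 of the 32520 identifiers.

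Groups came from titles. Each experiment was fitted with edgeR 4.0.16 in R 4.3.3: TMM factors, a filterByExpr filter with a minimum count of 10 and a minimum total of 15, and the two-sided quasi-likelihood test with Benjamini-Hochberg adjustment over all genes tested and a threshold of 0.05. The comparison between experiments used 1 fit of all 10 libraries. SE is the log2 fold change over the square root of F; 95% intervals use the fit's degrees of freedom. Replicates differed beyond counting noise in every pair (chi-square per degree of freedom 11.04 to 43.6). The functions were tested on simulated counts. Alternatives were other scaling factors and filters, DESeq2 1.42.0, limma-voom (limma 3.58.1), the replicate number as a block, other sets of libraries in the fit and each library left out.

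The genes and lists were chosen with earlier results of these data known. Named were mki67, pcna, mcm2 and ccnd1; per comparison the 5 replication and 8 mitotic genes with the smallest unadjusted p, every gene with an adjusted p under 0.05, and the 2 genes of each longer list with the smallest p. Members named outside this rule were chosen after their values were seen. Symbols of the longer lists were also matched without the letter of a zebrafish gene copy. Promoter sequences were not analysed here. Figures used matplotlib 3.10.9.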

Additional observations from a re-analysis of the deposited data

How the results depend on the processing

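No alternative gave a cell cycle member an adjusted p under 0.05 in the comparison of clo/+ with wild type (15 alternatives) or of Npas4l OE with control (13). In both comparisons DESeq2 gave some members no adjusted p, and these counted as not passing. Between the experiments, rfc4 passed in 13 of 14 alternatives, mcm2 in 9 and rpa2 in 6; only rfc4, 1 gene, passed when the fit used only the 5 libraries compared. The counts over all genes varied widely. For clo/+ they were 2 higher and 0 lower in the reported fit, 176 and 35 without a filter, 114 and 36 with DESeq2, and 96 and 24 with the replicate block. There was 1 higher with upper-quartile factors, limma-voom or 1 fit of all 10 libraries, and 1 lower with 10 counts or more in each library. For Npas4l OE they were 1 and 4 as reported, 189 and 459 without a filter, 113 and 272 with DESeq2, 39 and 148 with the replicate block, 28 and 82 in 1 fit of all libraries, 23 and 67 with limma-voom, and 8 and 22 with 10 counts or more in each library. There were 2 lower with upper-quartile factors and 1 with library size only, and the latter also turned kif23 to 0.14. The cause of this spread was not tested. Same-numbered libraries correlated at 0.0071 to 0.080 in deviation from their group means, and differently numbered ones at -0.083 to 0.014. The numbers were not taken as pairs, although these values do not settle whether they are. Under the replicate block mcm2, rfc4 and rpa2 still passed between the experiments. The filter set which mitotic genes entered: their median was 0.89 without a filter and -0.072 with 10 counts or more in each library for clo/+, and 0.83 and -0.29 between the experiments, where it was -0.21 in the fit of 5 libraries and the replication median -0.48 with the strict filter. The strict filter left 2 mitotic genes.

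With 1 library left out, genes called were 0 to 15 higher and 0 to 2 lower for clo/+, 14 to 458 and 38 to 653 for Npas4l OE, where the lone library was assumed to vary like the others, and 782 to 1319 and 1004 to 1419 between the experiments. Members called were 0 to 0, 0 to 0 and 0 to 3. Replication medians were 0.14 to 0.39, 0.074 to 0.93 and -1.26 to -0.73, and mitotic medians 0.23 to 0.74, -2.54 to 0.26 and -0.59 to 0.87. Of 229 such fits of named members, 19 changed sign. For clo/+ these concerned bub1ba (-0.032 to 1.52), nusap1 (-0.092 to 1.77) and ccnd1 (-0.060 to 0.34). For Npas4l OE they concerned mcm2 (-0.089 to 1.88), mcm3 (-0.42 to 1.54), mki67 (-1.31 to 0.82), ccna2 (-6.33 to 0.19), cdk1 (-6.38 to 0.24), ccnb3 (-0.37 to 0.81), kif23 (-0.23 to 0.15) and ube2c (-2.95 to 0.37). Between the experiments they concerned ccnb1 (-0.56 to 3.64), mki67 (-0.76 to 0.93) and ccnd1 (-0.018 to 0.24). Of the mitotic genes, 14 and 15 of 25 had too few counts for the tests within experiments.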

Other observations

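A gene named BIRC5 (ENSDARG00000075621), close in name to the listed birc5a but not an exact match, had 1.48, 1.22 and 0.803 CPM in wild type, against 2.01, 1.20 and 0.506 CPM in clo/+, 0.735 and 0.395 CPM in the controls and 0.380 and 1.86 CPM in Npas4l OE. Its groups overlapped within each experiment, and its log2 fold change in clo/+ was 0.11 (SE 0.77, adjusted p = 0.964, edgeR's quasi-likelihood test). The replication sum without pcna and mcm4 was 54.5, 80.4 and 82.9 CPM in wild type, against 80.2, 98.5 and 87.1 CPM in clo/+, 49.5 and 35.9 CPM in the controls and 37.3 and 61.9 CPM in Npas4l OE, so the wild-type and clo/+ sums overlapped there too. The 3 G1/S genes summed to 32.9 to 37.9 CPM in wild type, 30.5 to 36.7 CPM in clo/+, 27.8 to 29.8 CPM in the controls and 28.0 to 28.1 CPM in Npas4l OE.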
